A study of Mus musculus with 8 samples.

Results

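The genes described here are 10 components of cytosolic bacterial sensing and pyroptosis: the receptors Nod1 and Nod2 with their kinase Ripk2, the inflammasome sensors Nlrp3, Nlrc4 and Aim2, the adaptor Pycard, the caspases Casp1 and Casp4, and the pore protein Gsdmd. They were chosen by symbol, through the RefSeq identifier of each row, and each of the 10 had exactly 1 row among the 24625 rows of the table, of which 19915 carried a symbol. Expression was measured in 8 samples of lung neutrophils from wild type (WT) mice, C57BL/6J by the study's methods and 6 to 12 weeks old by the labels. The 4 SP samples came from mice given Streptococcus pneumoniae into the left lung through the trachea, 2.3 µl for each g of weight, and the 4 PBS samples from mice given the phosphate-buffered saline that carried the bacteria. Cells were collected after 24 h from whole lung digests with magnetic beads against the neutrophil surface protein Ly6G, and by the methods purity was checked on stained cells of the pneumonia samples only, where it was high and the few other cells mostly looked like alveolar macrophages. The methods also describe mRNA of Ly6G as highly expressed in every sample. The labels give no animal for a sample, and the study's text describes each sample as taken from a mouse.

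Inflammasomes are complexes that form in the cytosol when a sensor meets a microbial product or a sign of damage. The sensor recruits the adaptor ASC, the product of Pycard, which gathers and activates caspase-1, and caspase-1 matures interleukin-1β and interleukin-18 and cleaves gasdermin D. The freed part of gasdermin D makes pores in the plasma membrane, which can end in the lytic death called pyroptosis. In mice Casp4 encodes caspase-11, which cleaves gasdermin D after binding lipopolysaccharide. NOD1 and NOD2 sense fragments of the bacterial cell wall and signal through the kinase RIPK2 to NF-κB without forming an inflammasome. Neutrophils are known to assemble several inflammasomes, and to release interleukin-1β often without lysing.

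The 10 genes were chosen with earlier results of these data known. The study had already named Nod1, Nod2, Nlrp3, Pycard and Casp1 as upregulated. Shares of all rows given below are therefore a comparison, not a test of the set. All 10 genes were higher in SP than in PBS. Each passed an adjusted p of 0.05 and a difference of at least 2-fold by limma, a call made in the higher direction for 6.37% of all rows, and without the fold threshold for 21.5%. Differences (SP minus PBS, log2 units) ran from 1.48 for Nlrc4 to 3.42 for Nod2, with a median of 1.71 over the 10 genes against 0.10 over all rows. For each of the 10, the lowest SP value lay above the highest PBS value, as it did in 27.2% of all rows. The gap between the groups was narrowest for Nlrc4, at 0.23 log2 units, and widest for Nod2, at 2.66. Every value given below is a log2 expression level from the deposited table, on a scale that ran from 3.64 to 14.45. Levels of different genes come from different probes. Percentiles of level among all rows, given below for some genes, are therefore only a rough guide.

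**Figure D1:**
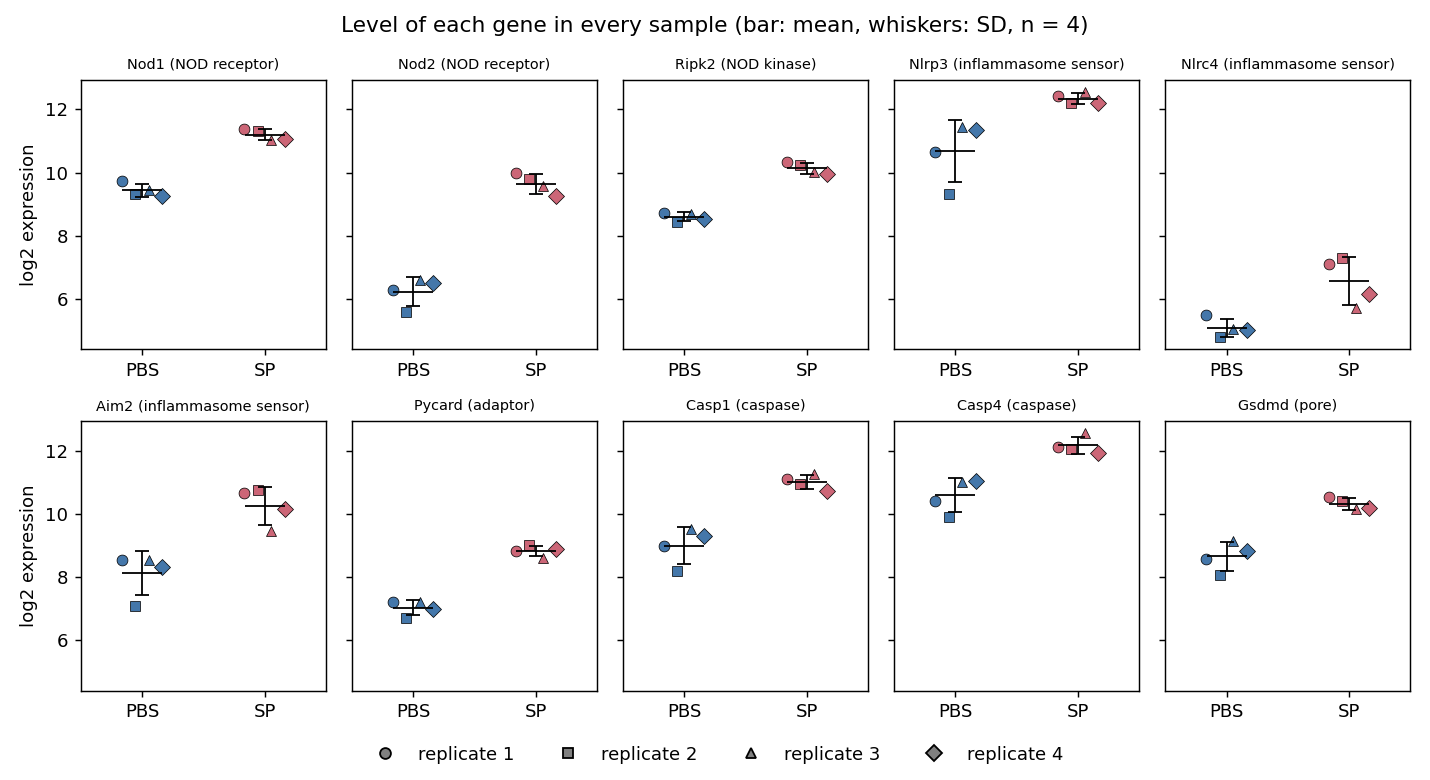
Log2 expression of each of the 10 genes (vertical axis) in the 4 PBS samples (blue) and the 4 SP samples (red), with the mean as a bar, the SD as whiskers and a symbol for each replicate number. In every panel the SP samples lie above the PBS samples, and PBS replicate 2 (square) is the lowest PBS sample for 9 of the 10 genes.

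The NOD receptors were compared first. Nod2 (NM_145857), the receptor for muramyl dipeptide, lay at 6.27, 5.59, 6.59 and 6.49 in PBS replicates 1 to 4 and at 9.99, 9.79, 9.58 and 9.25 in SP replicates 1 to 4. It was dim in PBS, close to the array medians of 6.06 to 6.20, and clearly above the SP array medians of 5.78 to 5.91 in every SP sample. Its difference was 3.42 log2 units (SE 0.24), a 10.7-fold rise (adjusted p = 2.41e-05 by limma). Nod1 (NM_001171007), which senses a peptide of the cell wall carrying diaminopimelic acid, lay at 9.73, 9.32, 9.45 and 9.25 in PBS and at 11.37, 11.33, 11.03 and 11.06 in SP. It rose 3.39-fold (1.76 log2 units, SE 0.13, adjusted p = 3.13e-05), and both groups were tight. Ripk2 (NM_138952), the kinase that both receptors recruit, lay at 8.73, 8.43, 8.70 and 8.54 in PBS and at 10.32, 10.25, 10.03 and 9.95 in SP. It rose 2.90-fold (1.54 log2 units, SE 0.11, adjusted p = 2.81e-05) and had the smallest spread of the 10 genes in PBS (SD 0.14, n = 4).

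Among the inflammasome sensors, Nlrp3 (NM_145827), which responds to potassium loss and membrane damage, lay at 10.65, 9.32, 11.44 and 11.35 in PBS and at 12.43, 12.20, 12.55 and 12.19 in SP. The PBS samples were spread over more than 2 log2 units, while the SP samples lay between 12.19 and 12.55. The rise was 3.15-fold (1.65 log2 units, 95% confidence interval 0.68 to 2.63, adjusted p = 0.0146), the highest adjusted p of the 10. Without PBS replicate 2, the lowest sample, the difference was 1.20 log2 units with a smaller SE of 0.20 in place of 0.43. Aim2 (NM_001013779), a sensor of cytosolic DNA, lay at 8.53, 7.09, 8.53 and 8.33 in PBS and at 10.66, 10.74, 9.45 and 10.14 in SP. PBS replicate 2 was again low, and the difference of 2.13 log2 units (4.38-fold, SE 0.39, adjusted p = 0.00296) was the second in size after Nod2.

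Nlrc4 (NM_001033367), which with NAIP proteins detects flagellin and type III secretion proteins, had the lowest place among all rows of the 10 genes, at the 37.5th percentile of PBS means and the 57.9th of SP means. It lay at 5.48, 4.79, 5.05 and 5.03 in PBS, below every PBS array median and, in PBS replicate 2, within the range of 4.33 to 4.90 of 3 Y-linked genes (Ddx3y, Kdm5d and Uty), which served as a guide to background. SP values were 7.10, 7.28, 5.71 and 6.17, with replicate 3 below its group's array medians. The rise of 2.79-fold (1.48 log2 units, SE 0.35, adjusted p = 0.00949) starts near background, where a fold change is uncertain. SP replicates 1 and 2 were both higher than replicates 3 and 4 for Nlrc4, as they were for 6 of the 10 genes (also Aim2, Nod1, Nod2, Ripk2 and Gsdmd), and so were the means of 7 T cell markers (6.54 and 6.76 against 5.65 and 5.61) and of 7 B cell markers (6.63 and 6.97 against 5.86 and 5.89). The same order held for NK cell markers (5.61 and 5.55 against 5.08 and 5.05) and dendritic cell markers (5.83 and 5.85 against 5.61 and 5.72). It did not hold for the other marker lists. Among the pathway lists described below, it also held for other cytosolic sensors and for NOD and RIPK2 signalling. The part of lymphocyte RNA in the values of the 6 genes was not tested. This order was noticed after the values were seen, as was the following. SP replicate 3 was the lowest SP sample for 5 of the 10 genes, Nlrc4 and Aim2 among them, and the highest for 3. SP replicate 4 was the lowest for the other 5. Among SP samples, replicate 3 had the highest mean of neutrophil markers (12.91, against 12.35 to 12.54). Its means of monocyte and macrophage markers (9.04, against 9.93 to 10.30) and endothelial markers (8.65, against 9.38 to 9.88) were the lowest. The part of these cells in the values was not tested either.

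The adaptor and the caspases followed the sensors. Pycard (NM_023258) lay at 7.22, 6.70, 7.22 and 6.99 in PBS and at 8.83, 9.0, 8.61 and 8.88 in SP, a 3.48-fold rise (1.80 log2 units, SE 0.14, adjusted p = 3.65e-05 by limma). Casp1 (NM_009807) lay at 8.97, 8.20, 9.51 and 9.30 in PBS and at 11.09, 10.94, 11.26 and 10.72 in SP, a 4.02-fold rise (2.01 log2 units, SE 0.27, adjusted p = 0.000584). Both genes were separated by over 1 log2 unit between the highest PBS and the lowest SP sample. Casp4 (NM_007609), the caspase of the non-canonical inflammasome, lay at 10.39, 9.91, 11.02 and 11.03 in PBS and at 12.13, 12.06, 12.55 and 11.91 in SP. It rose 2.98-fold (1.57 log2 units, SE 0.27, adjusted p = 0.00189), and SP replicate 3 was its highest sample, as it was for Nlrp3 and Casp1. Gsdmd (NM_026960), the substrate of both caspases that forms the pore, lay at 8.58, 8.06, 9.15 and 8.83 in PBS and at 10.53, 10.41, 10.14 and 10.18 in SP. It rose 3.16-fold (1.66 log2 units, SE 0.22, adjusted p = 0.000520). These are mRNA levels, and the table holds no measure of assembly or cleavage.

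Whether related genes changed by different amounts was tested on their difference within each array, which a shift of a whole array up or down does not move. Of 6 pairs, 3 had no overlap between the groups. Nod2 minus Nod1 was -3.21 ± 0.47 over the PBS samples and -1.55 ± 0.19 over the SP samples (SD, n = 4 each), so the rise of Nod2 was 3.16 times that of Nod1. Ripk2 minus Nod2 went from 2.37 ± 0.36 to 0.48 ± 0.16, since Nod2 rose 3.70 times as much as its kinase. Casp4 minus Casp1, neighbouring genes in the RefSeq annotation, went from 1.59 ± 0.15 to 1.16 ± 0.11, a rise of Casp1 that was 1.35 times that of Casp4. These 3 pairs reached p = 0.0286 in a two-sided exact permutation test, the smallest value that 70 arrangements allow, and p = 0.0571 after adjustment over the 6 pairs, which does not pass 0.05. With 3 of 6 pairs at that smallest value, the adjusted p could not have been lower. The adjusted test therefore cannot decide whether the genes of these pairs rose by different amounts.

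The other pairs overlapped between the groups. Aim2 minus Nlrp3 differed by 0.48 log2 units (SE 0.42, exact permutation p = 0.314, adjusted 0.471), Casp1 minus Pycard by 0.21 (SE 0.27, p = 0.514, adjusted 0.617) and Nlrp3 minus Nlrc4 by 0.18 (SE 0.62, p = 0.743, adjusted 0.743). The last changed sign without PBS replicate 2 or without SP replicate 3 (-0.18 in each case). These p-values do not show that the genes of a pair rose by the same amount.

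**Figure D2:**
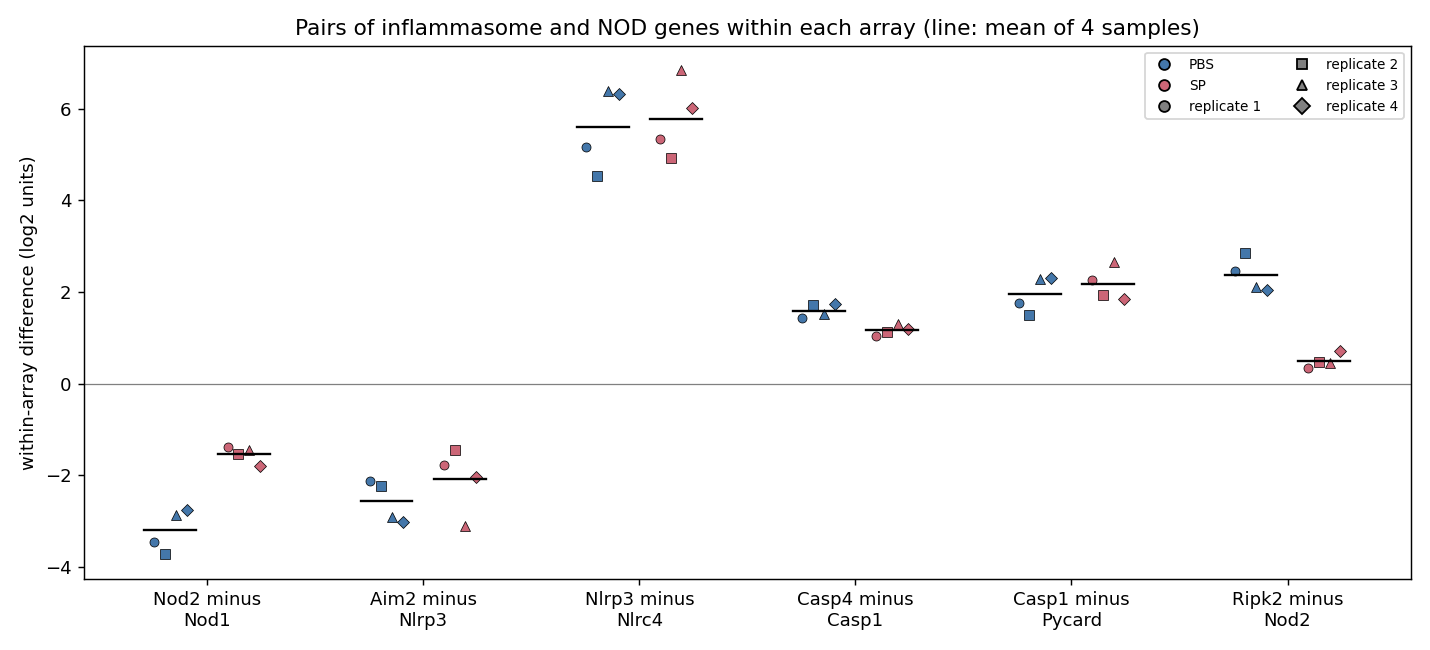
Difference in log2 expression between 2 genes on the same array (vertical axis, log2 units) for 6 pairs, with PBS samples in blue, SP samples in red, a symbol for each replicate number and the mean of each group as a line. The groups are apart for Nod2 minus Nod1, Casp4 minus Casp1 and Ripk2 minus Nod2, and overlap for the other pairs.

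Promoter sequences were examined because the 10 genes moved together. RefSeq promoters of the mouse assembly GRCm38.p6, 300 bases from 250 before to 50 after a transcript start, were matched by symbol for 8 of the 10 genes (11 promoters), all except Gsdmd and Ripk2. Then 3 motifs were searched on both strands: the NF-κB consensus, the core of the interferon-stimulated response element (TTTC, any 2 bases, TTTC) and the STAT site GAS (TTC, any 3 bases, GAA). The NF-κB consensus was found in 3 of the 11 promoters, from 2 of the 8 genes (Casp4 and Nlrp3), and in 4.51% of all 32851 promoters. The matches in the Casp4 promoters are the same genomic site. GAS was found in 1 of the 11 promoters, from Nod1, and in 8.30% of all promoters. The response element core was found in none of the 11, and in 3.44% of all. Each match is written on the strand of the gene with the motif in capitals, and is a description of letters only.
Casp4, chr9:5308747-5308776, plus strand: tgagttacagGGGATTTCCCcacagcagtt
Nlrp3, chr11:59541373-59541402, plus strand: ggcttctgcaGGGAACCCCCgggaattctg
Nod1, chr6:54971836-54971864, minus strand: ggctggctgcTTCCAGGAAcctcctatgg
The Casp4 match lies at positions -92 to -83 from 1 annotated start and -103 to -94 from the other, and overlaps another match that begins 1 base earlier. The Nlrp3 match, on the strand opposite to the gene, lies at positions -186 to -177 from 1 of 2 starts. The Nod1 match lies at positions -193 to -185 from 1 of 2 starts. The promoters of Nod2 and Aim2, which had the largest rises, held none of the 3 motifs in these windows, which says nothing of sites elsewhere.

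The other genes of these pathways were read from the same fit in 5 lists that did not include the 10 genes. Of 67 listed genes, 61 had a row. By limma, 36 of them were higher, 4 were lower and 21 did not pass an adjusted p of 0.05, which 44.1% of all rows passed (22.6% in the lower direction), with a median difference of 0.72 log2 units. At least 2-fold differences were called for 23 in the higher direction and 2 in the lower, the latter a call made for 11.3% of all rows.

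Of the other cytosolic sensors, 14 of 18 had a row, and 8 were higher, 6 of them at least 2-fold, and none lower. Ifi205, a gene of the PYHIN family to which Aim2 belongs, rose 40.7-fold from 7.34 ± 0.55 to 12.69 ± 0.14 (SD, n = 4 each, adjusted p = 4.12e-06 by limma). Nlrc5, known as a transactivator of MHC class I genes, rose 22.2-fold from 7.02 ± 0.50 to 11.49 ± 0.27. Mefv, which encodes pyrin, rose 7.60-fold, from 8.79 ± 0.86 to 11.71 ± 0.16. Naip5 and Naip2, which bind flagellin and the rod protein of type III secretion and then engage NLRC4, rose 3.63-fold and 3.43-fold. They lay at 8.18 ± 0.51 and 9.18 ± 0.53 in PBS. Members of the Naip and PYHIN families are close copies, and signal shared between their probes cannot be told apart here. Nlrp1a, Nlrp10, Nlrc3, Nlrx1, Ciita and Nlrp1b did not pass, with differences of 0.01 to 0.94.

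Of 11 other caspase, gasdermin and membrane rupture genes, 4 were higher and 2 lower. Ninj1, needed for the final rupture of the plasma membrane, rose 8.50-fold from 9.27 ± 0.76 to 12.36 ± 0.14 (adjusted p = 0.000193 by limma). Casp8, which joins death receptor signals to inflammasomes, rose 2.96-fold from 10.88 ± 0.14 to 12.44 ± 0.04. Gsdme, another gasdermin, fell 2.33-fold from 9.87 ± 0.73 to 8.65 ± 0.04 (adjusted p = 0.0152), in the direction opposite to Gsdmd, and by just under 2-fold with arrays centred on their median (-0.94 log2 units). The other lower gene, Casp2, was named after its value was seen and fell by 0.30 log2 units, about the offset between the array medians of the groups (0.28), with no call with arrays centred on their median (-0.02, adjusted p = 0.875) or on neutrophil markers (-0.15, 0.507), after quantile normalization (-0.15, 0.213) or with a robust prior (-0.30, 0.0697). Gsdma and Gsdmc lay at 4.06 to 4.47 on all arrays, no higher than the Y-linked genes.

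The interleukin-1 family cytokines and their antagonists formed a list of 6 genes, 4 of them higher. Il1b, the substrate of caspase-1 that neutrophils make in bulk, was already at 12.99, 12.67, 13.22 and 13.21 in PBS and at 13.25, 13.15, 13.27 and 13.18 in SP. Its difference of 0.19 log2 units (95% confidence interval -0.10 to 0.48, adjusted p = 0.242 by limma) was not called, except with arrays centred on their median (0.47, adjusted p = 0.0225). The mean of Il1b stood at the 99.8th percentile of all rows in both groups. By RT-qPCR, a separate measure of mRNA, the study reported Il1b as significantly higher in pneumonia in independent samples. The array result alone therefore does not show that Il1b mRNA was unchanged. Il18, the other substrate, rose 2.69-fold, from 8.35 ± 0.25 to 9.78 ± 0.44 (SD, n = 4 each). The antagonists Il18bp, which binds interleukin-18, and Il1rn, which blocks the interleukin-1 receptor, rose 6.56-fold and 6.23-fold. Il1a, which signals through the same receptor without needing caspase-1, rose 35.3-fold from 8.29 ± 0.76 to 13.43 ± 0.12. The decoy receptor Il1r2 (12.41 ± 0.45 and 12.80 ± 0.10) had an adjusted p of 0.143. It passed when arrays were centred on their median (0.67, adjusted p = 0.0222) or on neutrophil markers (0.54, adjusted p = 0.0346), of which it is itself 1.

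Of 13 genes that license or restrain inflammasomes, 12 had a row, with 6 higher and 1 lower. Irgb10 (Gm12250 in RefSeq), a GTPase that attacks bacterial membranes, rose 36.8-fold from 6.90 ± 1.41 to 12.10 ± 0.27 (adjusted p = 0.000295 by limma). The size of this rise depended on single PBS samples. The difference of 5.20 log2 units was 5.84 without PBS replicate 1, the highest PBS sample, and 4.71 without PBS replicate 2, the lowest. The guanylate-binding protein Gbp2 rose 5.03-fold from 10.85 ± 0.82 to 13.18 ± 0.05, and Zbp1, a sensor of Z-form nucleic acid, rose 6.64-fold from 9.34 ± 0.74 to 12.07 ± 0.25. Ctsb, a lysosomal protease whose escape is tied to NLRP3 activation, rose 2.28-fold, from 11.91 ± 0.13 to 13.10 ± 0.14. Trim30a, described as a brake on NLRP3, was 1.75-fold higher (adjusted p = 0.0277), which no longer passed by the methods' t-test (0.0600) or when PBS replicate 1, SP replicate 1 or SP replicate 2 was left out (0.0571, 0.0647 and 0.0597). The only lower gene was Nek7, the kinase that binds NLRP3 during assembly. It was named after its value was seen and lay at 10.25, 10.43, 10.28 and 10.37 in PBS and at 9.31, 9.34, 9.29 and 9.67 in SP, a 1.91-fold fall (adjusted p = 0.000215).

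Of 19 genes of NOD and RIPK2 signalling, 18 had a row, and 14 were higher and 1 lower. Traf6, a ubiquitin ligase downstream of RIPK2, rose 4.55-fold from 8.84 ± 0.17 to 11.03 ± 0.20 (adjusted p = 1.07e-05 by limma). Tnfaip3, the ubiquitin-editing enzyme A20 that damps the pathway, rose 6.24-fold from 10.30 ± 1.28 to 12.94 ± 0.16, with a difference of 2.64 log2 units that was 2.03 without PBS replicate 2. Slc15a3, an endolysosomal transporter of muramyl dipeptide, rose 3.35-fold from 10.72 ± 0.56 to 12.46 ± 0.13. Erbin, which binds NOD2, was higher by 1.99-fold (11.31 ± 0.05 and 12.30 ± 0.17). The ubiquitin ligases and ligase subunits Xiap, Birc2, Birc3, Rbck1 and Sharpin were also among the 14, with differences of 0.50 to 1.26 log2 units. Slc15a2, a peptide transporter of the cell surface, was the lower gene, at 8.69, 9.14, 9.42 and 9.50 in PBS and at 9.11, 6.37, 5.57 and 5.83 in SP. SP replicate 1 stayed within the PBS range, and the difference of -2.47 (adjusted p = 0.0232) was -3.26 without it. It did not pass by the methods' t-test (0.0572), with array weights (0.0723) or when PBS replicate 3 or 4 or SP replicate 2, 3 or 4 was left out (0.0517 to 0.0572).

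**Figure D3:**
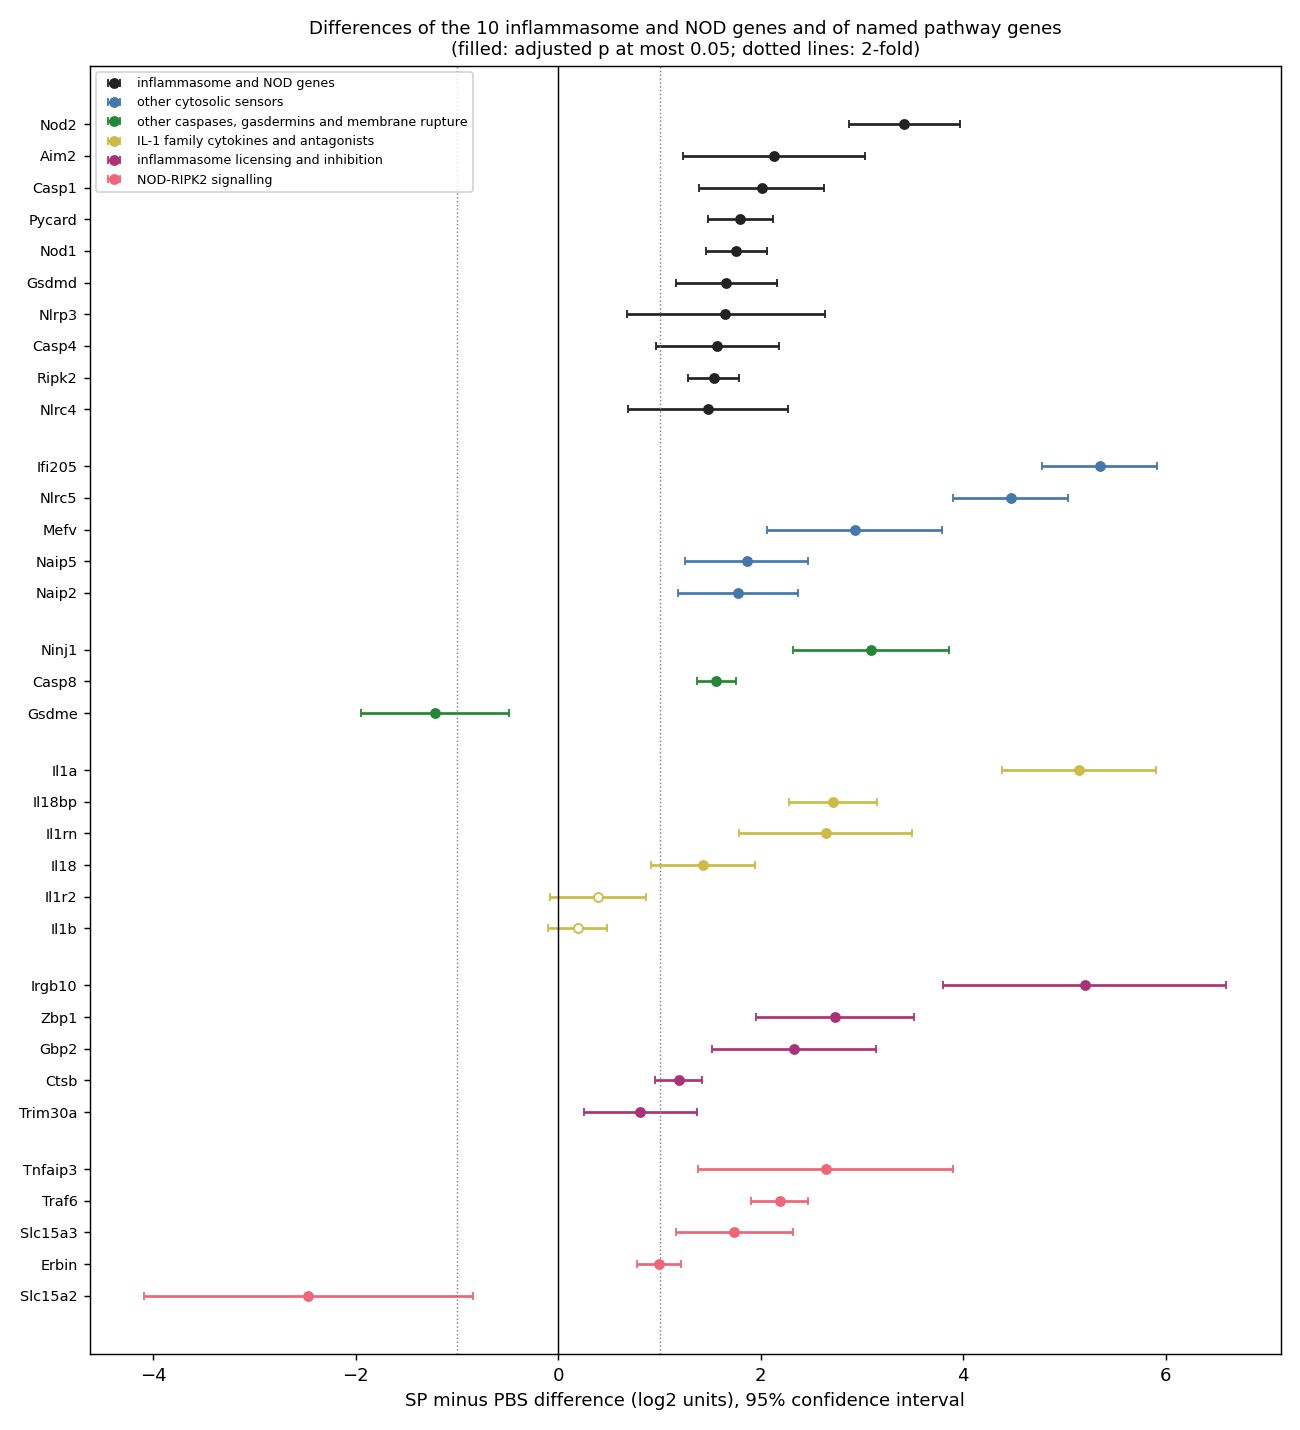
SP minus PBS difference in log2 units (horizontal axis) with its 95% confidence interval for the 10 genes (black) and for the named genes of 5 pathway lists (colours), filled where the adjusted p by limma was at most 0.05. All 10 genes lie between 1.48 and 3.42, Gsdme and Slc15a2 lie below 0, and the open symbols are Il1b and Il1r2.

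The cells behind these values were checked with marker genes. In bulk samples, fewer cells of a type and less RNA per cell cannot be told apart. The mean of 10 neutrophil markers was 12.42 to 12.91 in PBS and 12.35 to 12.91 in SP, so the means overlapped, while the mean of the 10 inflammasome and NOD genes was 7.74 to 8.67 in PBS and 10.05 to 10.45 in SP. Single neutrophil markers moved both ways: Mmp8 (-0.76 log2 units), Mmp9 (-0.59) and Retnlg (-0.47) were lower in SP, Clec4d was higher (0.85), and 6 were not called. Ly6g was not analysed here. Markers of several other cell types differed between the groups. For comparison, 21.5% of all rows were called higher in SP and 22.6% lower. All 6 ciliated and 5 airway secretory markers were lower in SP (list means of 9.27 to 10.11 and 12.33 to 13.11 in PBS against 6.61 to 7.38 and 10.01 to 11.17), as were 8 of 9 alveolar epithelial and 7 of 8 endothelial markers. Of alveolar macrophage markers 5 of 9 were lower and 1 higher, at 8.87 to 9.60 in PBS and 7.74 to 8.58 in SP. Of monocyte and macrophage markers 5 of 10 were higher and 1 lower, at 8.81 to 9.56 in PBS and 9.04 to 10.30 in SP. All 7 B cell markers were lower in SP, 2 of 7 T cell markers were higher and none lower, and none of 6 NK cell markers was called. Of 8 dendritic cell markers 1 was higher and 2 were lower, and of 6 fibroblast markers 2 were lower. The few calls of T cell, dendritic cell and fibroblast markers are not read as shifts of those cells. Monocytes and macrophages also express inflammasome genes, and their part in the 10 rises was not tested.

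Within the PBS group, PBS replicate 2 was the lowest sample for 9 of the 10 genes, with Nod1 as the exception. The same array had the lowest means of neutrophil markers (12.42, against 12.67 to 12.91 in the others) and of monocyte and macrophage markers (8.81, against 9.25 to 9.56). It had the highest means of endothelial markers (11.41, against 10.38 to 10.99), ciliated markers (10.11, against 9.27 to 9.68) and airway secretory markers (13.11, against 12.33 to 12.65). The part of this in its low values was not tested. With every array centred on its neutrophil markers, all 10 genes were still called at least 2-fold higher, by 1.62 to 3.57 log2 units. Without PBS replicate 2 all 10 were called as well, by 1.20 to 3.21. For 8 of the 10 genes the SD was larger in PBS than in SP, and the exceptions were Nlrc4 (0.75 in SP against 0.29) and Ripk2 (0.18 against 0.14).

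**Figure D4:**
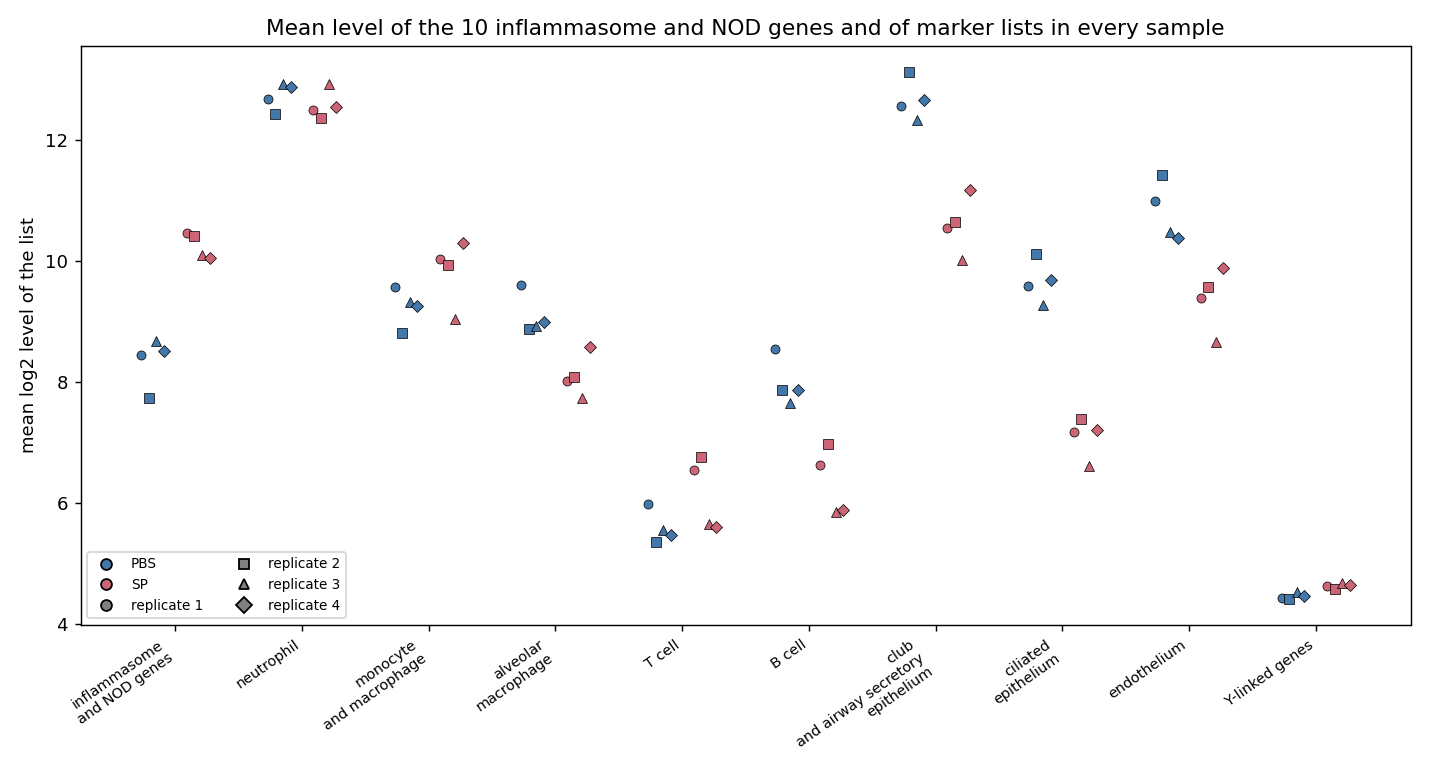
Mean log2 level (vertical axis) of the 10 genes, of marker lists for lung cell types and of 3 Y-linked genes in every PBS sample (blue) and SP sample (red), with a symbol for each replicate number. The 10 genes are higher in SP, neutrophil markers overlap between groups at 12.35 to 12.91, and epithelial and endothelial markers are lower in SP.

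The genes most like Nod2 and Nlrc4, the ends of the range of rises, were named by the Euclidean distance of row-centred log2 values over the 8 samples. Nearest to Nod2 were C9orf72 (distance 0.42), Herc6 (0.52) and Fnip2 (0.53), with differences of 3.20, 3.39 and 3.66 log2 units. Nearest to Nlrc4 were Cenpj (0.35), Phf7 (0.48) and Cd5 (0.49), with differences of 1.47, 1.45 and 1.24. Cd5 is 1 of the 7 T cell markers.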

How the data were processed

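Total RNA of 8 samples, 4 PBS and 4 SP by their labels, was hybridised to Affymetrix mRNA arrays. The deposited log2 values were made by the authors with the robust multi-array average (RMA), which corrects background, normalizes by quantiles and summarises probes, and the submitters' notes name Affymetrix Expression Console and Partek. The genome build was not given in the sources used here. No scanner intensities were used, and precision is limited by there being 8 arrays.

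SP was compared with PBS on all 24625 rows with limma 3.58.1 (R 4.3.3, lmFit and eBayes), with Benjamini-Hochberg adjustment over all rows. A call needed an adjusted p of at most 0.05, and a 2-fold call also a difference of at least 1 log2 unit. Symbols came from a RefSeq table, which matched 19915 rows (80.9%). Gene pairs were compared with two-sided exact permutation tests. From each pathway list the 4 genes with the largest absolute difference and the 2 with the highest mean were named, and any other named gene was chosen after its values were seen. Some genes of the lists are counted but not reported here by name. The code was tested on simulated data. The members and all lists were chosen with earlier results of these data known. Alternatives were the methods' t-test, a robust prior, a replicate block, array weights, other scalings, a filter on dim rows and leaving out each sample.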

Additional observations from a re-analysis of the deposited data

Results flagged for a closer look

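Of 70 groups of 4 samples (35 genes in PBS and in SP), 6 had 1 sample apart from the other three by Dixon's test, where chance gives about 1 in 20. Aim2 was lowest in PBS replicate 2, at 7.09 against 8.33 to 8.53, and so was Il1a, at 7.15 against 8.63 to 8.73. Nlrc5 was highest in PBS replicate 1, at 7.76 against 6.69 to 6.86. In SP replicate 4, Il18bp was lowest at 11.42 against 11.85 to 11.87, and Gbp2 at 13.11 against 13.20 to 13.21. Tnfaip3 was highest in SP replicate 3, at 13.17 against 12.84 to 12.88. All values are log2 levels.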

How the results depend on the processing

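All 10 genes were called at least 2-fold higher under every alternative, except that Nlrc4 was removed with the dim rows, leaving 9 of 9. The pair Nlrp3 minus Nlrc4 ranged from -0.18 to 0.46 with each sample left out and was reversed (-0.18) without PBS replicate 2 and without SP replicate 3. The replicate numbers are only shared labels: deviations of same-numbered samples correlated at 0.0156, 0.0304, 0.35 and -0.274. With the replicate block 9842 rows were called against 10860, the 10 differences stayed at 1.48 to 3.42 and the highest adjusted p was 0.0161. Centring arrays on their median moved the median of all rows from 0.10 to 0.38 and called 18255 rows, with 55.6% of 2-fold calls in the higher direction against 36.1%. That share was 46.1% after quantile normalization and 46.7% with centring on neutrophil markers. With median centring, 11 genes of NOD and RIPK2 signalling were called at least 2-fold higher against 6. The calls of Trim30a (1.75-fold) and Slc15a2 (5.53-fold) were lost when any of 3 and of 5 single samples was left out and by the methods' t-test, and that of Slc15a2 also with array weights.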

Other observations

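SP replicate 3 lay apart from the other SP samples for Casp6 and Serpinb1a, which were picked out after their values were seen. Casp6, an executioner caspase, was at 8.53, 8.54, 10.54 and 9.28 in SP and at 10.10 to 10.54 in PBS (log2 levels). Serpinb1a, an inhibitor of neutrophil serine proteases, was at 7.73, 7.74, 10.84 and 8.59 in SP and at 9.26 to 10.17 in PBS. Neither difference was called by limma (-1.11, adjusted p = 0.0577, and -1.03, adjusted p = 0.209).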
